A study of Mus musculus with 6 samples.

Results

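The basement membrane genes described here are 33 genes chosen by name: the 6 chains of type IV collagen, 10 laminin chains, both nidogens, the core proteins perlecan, agrin and collagens XV and XVIII, and linker and accessory genes. All 33 were found, each under a single gene ID, among 28627 genes in the deposited table. Poly-A RNA of mouse retina was measured in 3 Emcn-/- and 3 Emcn+/+ samples, taken from littermate pups on postnatal day 15. All 6 samples came from the oxygen-induced retinopathy model, in which pups breathe high oxygen, retinal capillaries regress, and vessels sprout again after return to room air, so both genotypes carried that treatment. No sample kept in room air was used here. Emcn encodes endomucin, a mucin-type glycoprotein of the glycocalyx on endothelial cells. The labels name neither a promoter nor a cell type for the deletion. Whether each sample was a separate animal is not stated, so a p-value below speaks of the spread among 6 samples that may in part be technical.

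Basement membranes are thin sheets of matrix on which endothelium, epithelium and glia rest. Laminin trimers of an alpha, a beta and a gamma chain polymerise at the cell surface, a network of type IV collagen trimers gives the sheet its strength, and nidogens and heparan sulfate proteoglycans link the networks. In the eye they surround retinal capillaries, where endothelium and pericytes share 1 sheet, form the inner limiting membrane between Müller glial endfeet and vitreous, lie in Bruch's membrane behind the pigment epithelium, and form the lens capsule.

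The libraries held 14865868 to 17087621 reads on genes. Emcn stood at 1.95, 1.04 and 4.62 normalised reads in Emcn-/- retinas, against 93.3, 80.6 and 100.5 in Emcn+/+ retinas, and its log2 fold change was -4.83 ± 0.40 (SE, limma adjusted p = 0.0143), so each library matched its label. Its adjusted p was 0.155 without Emcn-/- replicate 1, 0.0924 without Emcn+/+ replicate 1 and 0.191 without Emcn+/+ replicate 2 (limma). Markers of retinal bipolar cells (6 genes, all found) summed to 3002 to 3220 normalised reads per kb in Emcn-/- and 3174 to 3449 in Emcn+/+, so the tissue carried a retinal neuron signature in each library. Emcn+/+ replicate 1 stood apart: the lens crystallin gene Cryaa was at 22.4, 29.0 and 82.3 normalised reads in Emcn-/- retinas and at 20468, 7.41 and 5.46 in Emcn+/+ replicates 1, 2 and 3. Summed per kb of exons, 10 lens genes found of 11 listed gave 61.6 to 182 in Emcn-/- retinas and 30591, 39.4 and 28.1 in the same 3 Emcn+/+ libraries, and none of the 10 was at 0 in all libraries. Emcn+/+ replicate 3 was the only library with reads of Xist beyond a trace, 17641 against 1 to 5 elsewhere. It was also the only library with 0 reads of the Y-linked gene Ddx3y, against 1143 to 1393 elsewhere. By these genes it was female and the others male, so sex was not balanced between the genotypes. Because lens epithelium makes a thick basement membrane of many of these chains, estimates without Emcn+/+ replicate 1 are given below for the genes they moved most, and the part of the lens reads in any difference was not tested.

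No basement membrane gene passed the test between genotypes. Of the 33 genes, 32 passed the filter on low counts and 0 of these 32 had an adjusted p under 0.05 (limma, Benjamini-Hochberg over 16681 genes), where 0.00599% of all genes, Emcn alone, did. An unadjusted p under 0.05 was reached by 6 of the 32, or 18.8%, beside 8.14% of all genes tested. Of these 6, 4 had lower values in Emcn-/- retinas (4.47% of all genes) and 2 had higher values (3.67% of all genes). With edgeR 0 of the 32 passed and 7 had an unadjusted p under 0.05, as did 8.34% of all genes. With DESeq2 0 of the 19 that were given an adjusted p passed, and 5 of the 32 had an unadjusted p under 0.05, as did 5.75% of all genes. The log2 fold change was negative for 20 and positive for 12, with a median of -0.08, against 0.01 over all genes, of which 48.0% were negative. Without Emcn+/+ replicate 1 the split was 16 negative and 16 positive with a median of -0.01, and again 0 passed while 6 had an unadjusted p under 0.05 (6.74% of all genes). Every Emcn-/- library lay on 1 side of every Emcn+/+ library in 5 of the 32 tested genes (15.6%), beside 14.4% of all genes, a share near the background. In 3 of these 5 the Emcn-/- values were lower (6.94% of all genes) and in 2 higher (7.48% of all genes).

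**Figure D1:**
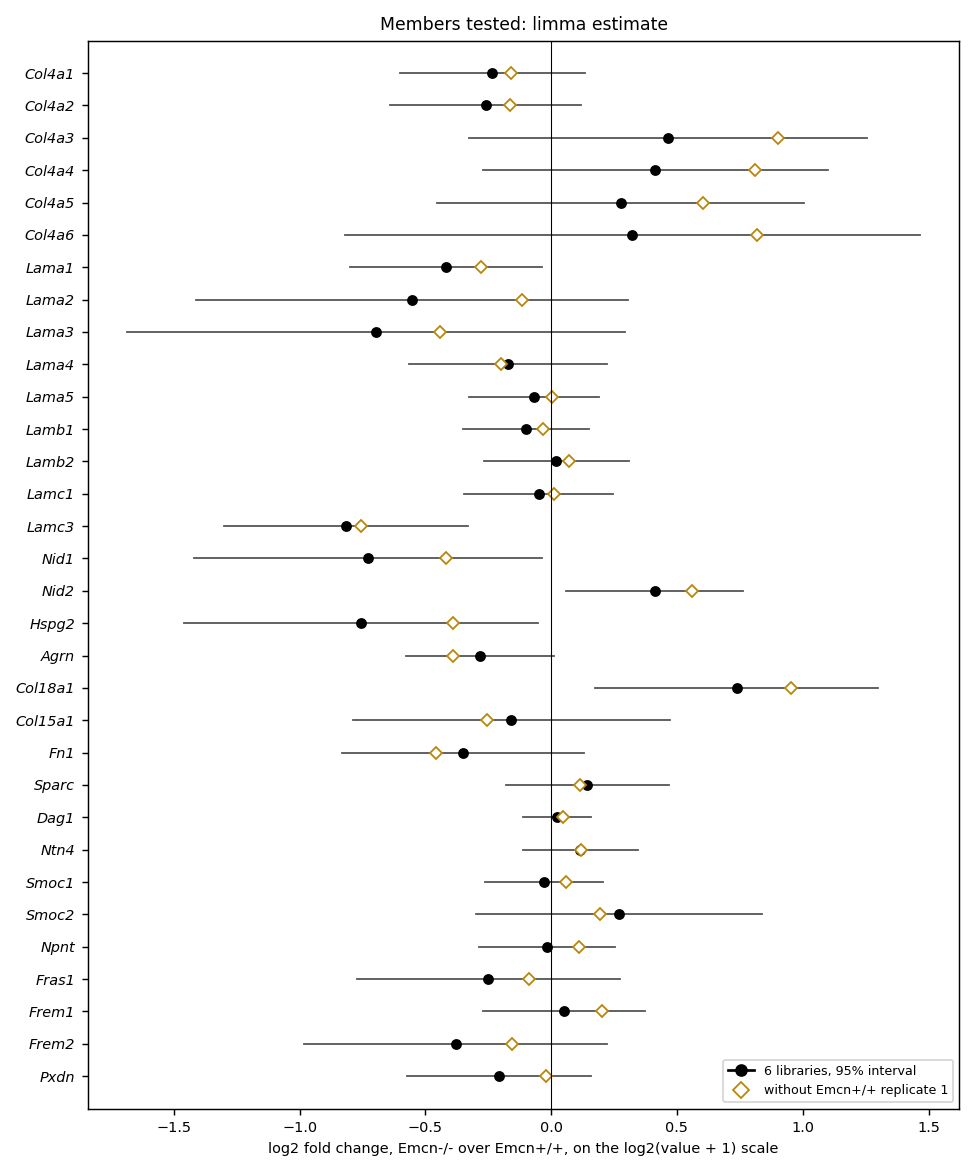
log2 fold change of Emcn-/- over Emcn+/+ for each of the 32 tested members (horizontal axis), with the 95% limma interval (line), and the estimate without Emcn+/+ replicate 1 (open diamond). The intervals of 26 members include 0; those of Lama1, Lamc3, Nid1, Nid2, Hspg2 and Col18a1 do not, although none passed after adjustment, and the diamonds of Lama2, Nid1 and Hspg2 lie nearer to 0 than the points.

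The networks differed in level and in how they varied. Per kb of exons, summed type IV collagen chains averaged 993 ± 179 normalised reads in Emcn-/- retinas and 1115 ± 215 in Emcn+/+ retinas (SD, n = 3 each, as for all such values below). The 5 laminin alpha chains summed to 78.3 ± 11.3 in Emcn-/- and 89.3 ± 8.45 in Emcn+/+, the 3 beta chains to 136 ± 14.4 in Emcn-/- and 139 ± 14.9 in Emcn+/+, and the 2 gamma chains to 122 ± 20.5 in Emcn-/- and 129 ± 12.5 in Emcn+/+. The 4 heparan sulfate and multiplexin core proteins summed to 626 ± 90.7 in Emcn-/- and 546 ± 117 in Emcn+/+. For each of these sums the difference of the means was smaller than the larger SD. In a bulk sample fewer cells of a type and less RNA per cell cannot be told apart.

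**Figure D2:**
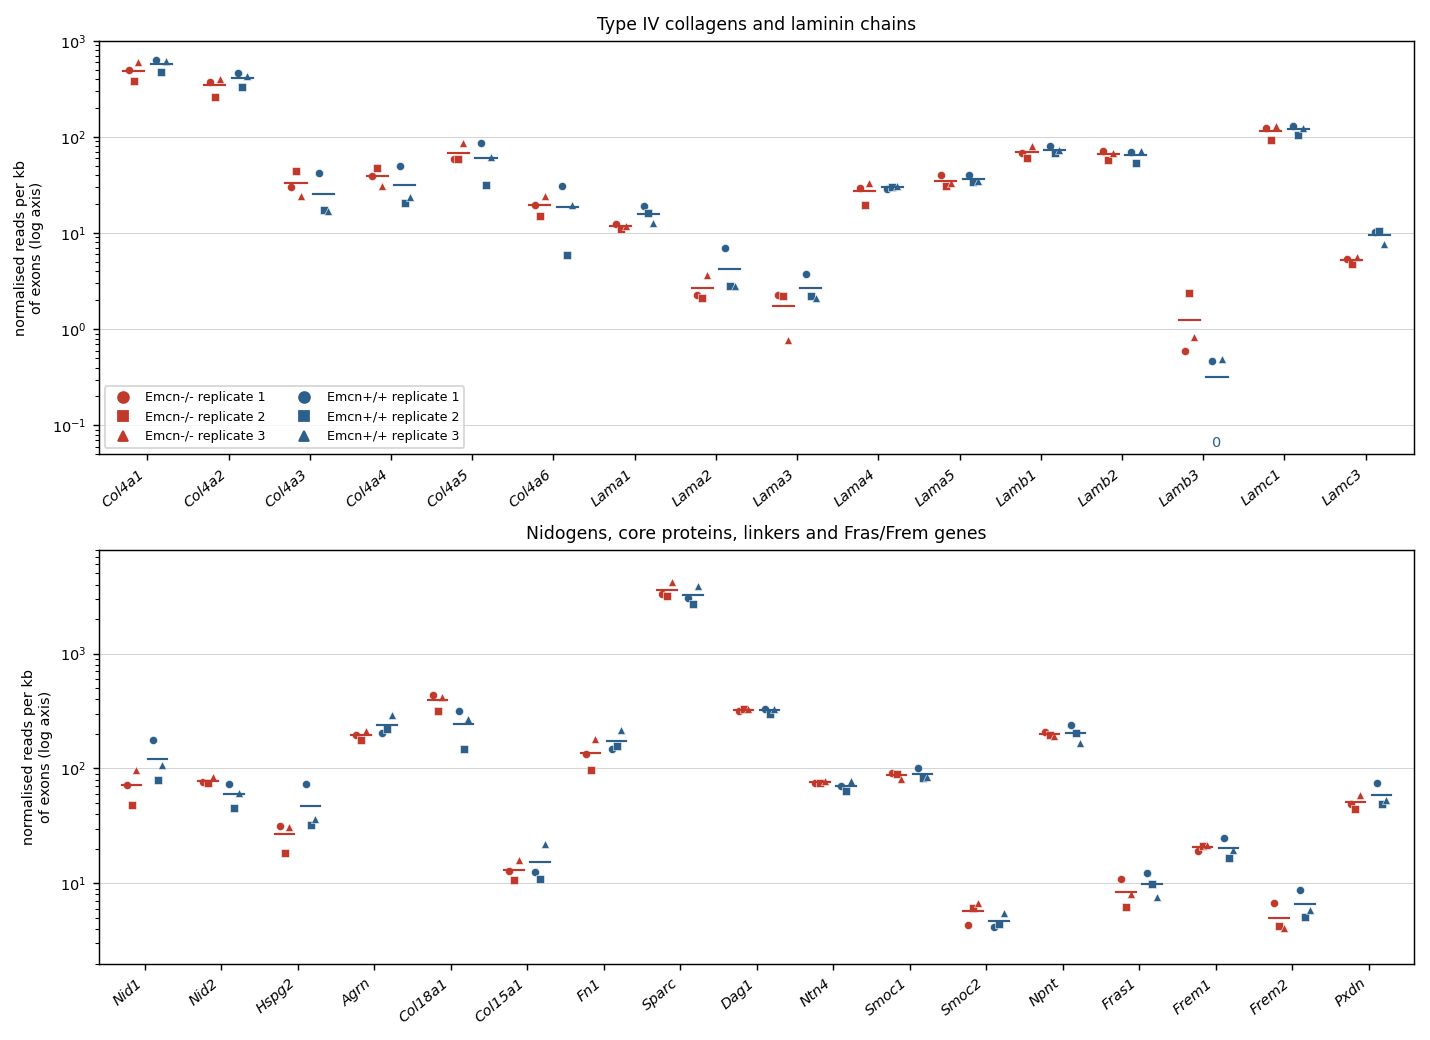
Normalised reads per kb of exons (log axis) of each of the 33 members in every library, Emcn-/- in red and Emcn+/+ in blue, with a bar at each mean and "0" where no read was counted. Sparc is the highest member and Lamb3 the lowest, and the Lamc3 points of the genotypes are separate.

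The type IV collagen chains are encoded in head-to-head pairs that share the region between their start sites, and the windows of 2 of the 3 pairs are shown because the levels within each pair are set against each other below. In RefSeq (GRCm38.p6), which held a promoter window for 22 of the 33 members, the start sites of Col4a1 (minus strand) and Col4a2 (plus strand) lie at 11312826 and 11312805 on chromosome 8, so their first exons overlap by 22 bp and their windows by 78 bp. Those of Col4a6 and Col4a5 lie 1343 bp apart on chromosome X. Each window runs from 250 bases before the start to 50 after it, 5′ to 3′ on the gene's own strand. Capitals mark the CCAAT box (CCAAT), the GC box (GGGCGG) and the TATA box (TATAAA), each searched on both strands. The windows are chr8:11312777-11313076 (Col4a1), chr8:11312555-11312854 (Col4a2), chrX:141475169-141475468 (Col4a5) and chrX:141474027-141474326 (Col4a6).
Col4a1: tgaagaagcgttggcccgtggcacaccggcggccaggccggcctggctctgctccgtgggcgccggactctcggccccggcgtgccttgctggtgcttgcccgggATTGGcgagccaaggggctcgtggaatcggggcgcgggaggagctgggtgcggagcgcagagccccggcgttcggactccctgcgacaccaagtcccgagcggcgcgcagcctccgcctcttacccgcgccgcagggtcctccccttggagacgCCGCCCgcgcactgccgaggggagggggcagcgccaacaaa
Col4a2: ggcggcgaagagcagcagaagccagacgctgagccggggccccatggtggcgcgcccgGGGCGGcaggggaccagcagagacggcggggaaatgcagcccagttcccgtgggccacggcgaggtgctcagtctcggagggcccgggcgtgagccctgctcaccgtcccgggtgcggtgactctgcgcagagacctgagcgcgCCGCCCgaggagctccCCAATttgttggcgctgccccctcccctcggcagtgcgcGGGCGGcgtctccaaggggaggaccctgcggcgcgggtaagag
Col4a5: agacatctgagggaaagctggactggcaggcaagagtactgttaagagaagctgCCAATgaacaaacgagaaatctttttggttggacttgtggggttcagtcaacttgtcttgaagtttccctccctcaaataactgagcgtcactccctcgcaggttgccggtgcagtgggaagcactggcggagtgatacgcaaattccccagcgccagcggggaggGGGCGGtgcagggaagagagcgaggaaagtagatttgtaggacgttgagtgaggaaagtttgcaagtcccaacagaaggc
Col4a6: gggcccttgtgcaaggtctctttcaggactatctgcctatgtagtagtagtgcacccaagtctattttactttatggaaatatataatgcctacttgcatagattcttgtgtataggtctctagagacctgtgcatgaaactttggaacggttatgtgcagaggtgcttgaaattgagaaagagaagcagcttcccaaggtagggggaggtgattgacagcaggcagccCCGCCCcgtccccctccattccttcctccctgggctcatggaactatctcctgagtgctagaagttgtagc
The GC box was in all 4 windows, 1 match each for Col4a1, Col4a5 and Col4a6 and 3 for Col4a2, and 35.7% of all 32851 mouse windows held it. The CCAAT box had 1 match in the Col4a1, Col4a2 and Col4a5 windows and none in that of Col4a6, against 37.4% of all windows, and the TATA box matched in none of the 4, against 13.6%. The GC box of the Col4a1 window lies in the bases shared with the Col4a2 window and is 1 of the 3 counted there. The GC content was 74.0% and 73.7% for Col4a1 and Col4a2 and 52.7% and 48.3% for Col4a5 and Col4a6.

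Col4a1 and Col4a2, whose products form the trimer found in almost every basement membrane, were the most abundant of the 6 type IV chains. Col4a1 (GRCm38 chromosome 8, 11198423 to 11312826) had 3692, 2834 and 4452 normalised reads in Emcn-/- retinas and 4692, 3516 and 4589 in Emcn+/+ retinas. Col4a2 (chromosome 8, 11312805 to 11449287) had 2479, 1709 and 2619 in Emcn-/- and 3065, 2208 and 2822 in Emcn+/+. Emcn-/- replicate 2 was the lowest library for both genes and Emcn+/+ replicate 1 the highest, and the genotypes overlapped. The log2 fold changes, -0.23 ± 0.16 and -0.26 ± 0.17 (SE, limma adjusted p = 0.718 and 0.706), were within the spread and were each -0.16 without Emcn+/+ replicate 1. Without Emcn-/- replicate 2 they were -0.06 for Col4a1 and -0.07 for Col4a2. The ratio of the pair was tight: per kb, Col4a1 over Col4a2 was 1.32, 1.47 and 1.51 in Emcn-/- and 1.36, 1.41 and 1.44 in Emcn+/+, a coefficient of variation over the 6 libraries of 4.92%, while each gene alone varied by 18.6% and 19.3%.

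The chains of the other collagen IV networks overlapped between genotypes. Col4a3 and Col4a4, which join Col4a5 in the network known from the kidney glomerulus, lie head to head on chromosome 1. Col4a3 had 299.9, 441 and 245 normalised reads in Emcn-/- and 423, 173 and 167 in Emcn+/+ (log2 fold change 0.47 ± 0.35 SE, limma adjusted p = 0.740). Col4a4 had 419.7, 499 and 328 in Emcn-/- and 532, 219 and 249 in Emcn+/+ (0.41 ± 0.30, 0.732). In both genes Emcn+/+ replicate 1 lay among the Emcn-/- libraries or above them, and without it the estimates were 0.90 and 0.81 (limma adjusted p = 0.436 and 0.353). Without Emcn+/+ replicate 2 they were 0.26 for Col4a3 and 0.17 for Col4a4, without Emcn+/+ replicate 3 0.23 and 0.26, and without Emcn-/- replicate 2 0.23 and 0.27. The pair kept its ratio as well, 0.714 to 0.941 per kb over the 6 libraries, a coefficient of variation of 9.65% against 41.0% and 34.7% for the genes alone. Set against the main chains, Col4a3 plus Col4a4 per kb was 0.0801, 0.143 and 0.0559 of Col4a1 plus Col4a2 in Emcn-/- and 0.0848, 0.0472 and 0.0386 in Emcn+/+, with overlap.

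The X-linked chains gave no separation either. Col4a5 had 397, 394 and 581 normalised reads in Emcn-/- and 585, 212 and 412 in Emcn+/+ (log2 fold change 0.28 ± 0.32 SE, limma adjusted p = 0.835). Col4a6, a chain of smooth muscle and some epithelial sheets, had 155, 119 and 194 in Emcn-/- and 244, 47.3 and 157 in Emcn+/+ (0.32 ± 0.50, 0.884). Emcn+/+ replicate 1 was the highest library and Emcn+/+ replicate 2 the lowest for both, and without replicate 2 both estimates turned negative, to -0.13 and -0.35. Without Emcn+/+ replicate 1 they were 0.60 for Col4a5 and 0.82 for Col4a6, and without Emcn-/- replicate 3 they were 0.09 and 0.15. Per kb, Col4a5 over Col4a6 was 3.05, 3.92 and 3.55 in Emcn-/- and 2.85, 5.33 and 3.11 in Emcn+/+. The coefficient of variation was 25.2%, looser than in the other pairs, against 32.4% and 43.7% for the genes alone. The highest ratio was that of Emcn+/+ replicate 2, the lowest library for both genes. Emcn+/+ replicate 3, the library with Xist reads, lay inside the range of the Emcn-/- libraries for both genes.

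Among laminin alpha chains, Lama1 had lower values in Emcn-/- retinas without passing, and the chains of vessels did not separate. Lama1, the chain of early embryonic sheets and of the inner limiting membrane, whose mutation in mice is known for retinal vessel and limiting membrane defects, lies on chromosome 17 (67697259 to 67822647). It had 122, 106 and 115 normalised reads in Emcn-/- retinas and 185, 157 and 122 in Emcn+/+ retinas. The genotypes did not overlap, as for 6.94% of all genes in this direction. The highest Emcn-/- library and the lowest Emcn+/+ library, however, differed by less than 1 normalised read. The log2 fold change was -0.42 ± 0.17 (SE, limma adjusted p = 0.577) and -0.28 without Emcn+/+ replicate 1.

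Lama4 and Lama5 are the alpha chains of vascular basement membrane, and Lama4 is known to restrain tip cell formation in the mouse retina. Lama4 had 358, 235 and 396 normalised reads in Emcn-/- and 349.5, 368 and 372 in Emcn+/+ (log2 fold change -0.17 ± 0.17 SE, limma adjusted p = 0.808). Lowest among the 6 values was that of Emcn-/- replicate 2, where the summed level of 12 endothelial markers, 988 per kb, was also the lowest. Those markers stood at 1569 and 1789 in Emcn-/- replicates 1 and 3 and at 1549 to 1727 in Emcn+/+, and 10 of the 12 had a negative estimate (median -0.21). The 10 pericyte and smooth muscle markers summed to 1242, 847 and 1387 in Emcn-/- and to 1069, 1026 and 1031 in Emcn+/+, and no marker of either list was at 0 in all libraries. Their part in the result was not tested, and without Emcn-/- replicate 2 the estimate for Lama4 was 0.05. Lama5 had 455, 349.6 and 381 normalised reads in Emcn-/- and 456, 387 and 395 in Emcn+/+ (-0.07 ± 0.11, 0.893). The 95% interval of its difference was -0.33 to 0.19 on the log2 scale. Per kb, Lama5 over Lama4 was 1.34, 1.57 and 1.02 in Emcn-/- and 1.38, 1.12 and 1.12 in Emcn+/+.

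The remaining alpha chains were low. Lama2, the main chain of muscle and nerve sheaths and of astrocyte endfeet, had 37.0, 34.2 and 60.1 normalised reads in Emcn-/- and 115, 46.3 and 45.9 in Emcn+/+ (log2 fold change -0.55 ± 0.38 SE, limma adjusted p = 0.716). Emcn+/+ replicate 1 was the only library above the Emcn-/- range, and the estimate was -0.12 without it. Lama3, a chain of the epithelial laminin of skin, had 24.3, 23.9 and 8.32 in Emcn-/- and 40.4, 24.1 and 22.9 in Emcn+/+ (-0.69 ± 0.44, 0.697). Its estimate was -0.22 without Emcn-/- replicate 3, the lowest library, and -0.44 without Emcn+/+ replicate 1. Lamb3, the beta chain of the same epithelial laminin, did not pass the filter on low counts, with 3.89, 15.6 and 5.54 normalised reads in Emcn-/- and 3.11, 0 and 3.28 in Emcn+/+, or 25 reads against 6. Its groups did not overlap, as for 7.48% of all tested genes in the higher direction. Emcn-/- replicate 1 (3.89) and Emcn+/+ replicate 3 (3.28) were almost level, and Emcn-/- replicate 2 was the highest library. The values in all 3 Emcn+/+ libraries stood at or under the limit that a count of 0 allows (2.78 to 3.28 normalised reads, counting error only). With no filter its limma adjusted p was 0.653.

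The common beta and gamma chains did not separate the genotypes. Lamb1, the beta chain of most laminins, had 669, 597 and 795 normalised reads in Emcn-/- and 802, 678 and 719 in Emcn+/+ (log2 fold change -0.10 ± 0.11 SE, limma adjusted p = 0.824, 95% interval -0.35 to 0.15). The estimate for Lamb1 was -0.0039 without Emcn-/- replicate 2. Lamb2, the beta chain prominent in retina, kidney glomerulus and synapse, had 433, 353 and 413 in Emcn-/- and 423, 329 and 436 in Emcn+/+ (0.02 ± 0.13, 0.975). Per kb both chains stood at about the same level, with Lamb1 over Lamb2 between 0.947 and 1.26 over all libraries. Lamc1, the gamma chain of nearly all laminins, had 1033, 774 and 1082 in Emcn-/- and 1075, 869 and 1027 in Emcn+/+ (-0.05 ± 0.13, 0.935).

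Lamc3 had the smallest p of the 33 genes. It encodes the gamma 3 chain, and mice that lack the beta 2 and gamma 3 chains together are known for a broken inner limiting membrane and disturbed retinal astrocytes and vessels. Lamc3 (chromosome 2, 31887291 to 31946539) had 33.1, 29.0 and 34.2 normalised reads in Emcn-/- retinas and 62.2, 64.0 and 47.0 in Emcn+/+ retinas. Every Emcn-/- library lay below every Emcn+/+ library, with a mean of 32.1 ± 2.71 in Emcn-/- and 57.7 ± 9.35 in Emcn+/+. The log2 fold change was -0.82 ± 0.21 (SE), lower in 3 of 3 Emcn-/- libraries, with an unadjusted limma p of 0.00428 and an adjusted p of 0.424, so the difference exceeded the spread within the groups but not what the number of genes tested demands. It was -0.76 without Emcn+/+ replicate 1 and ranged from -0.96 to -0.74 over libraries left out. The limma adjusted p ranged from 0.0862, without Emcn+/+ replicate 3, to 0.943. Relative to Lamc1, per kb, Lamc3 stood at 0.0435, 0.0510 and 0.0429 in Emcn-/- and at 0.0786, 0.0999 and 0.0621 in Emcn+/+. The exons of an antisense gene cover 6.27% of the exonic bases of Lamc3 and the strand setting of the libraries is not stated, so reads of the 2 cannot be told apart. The deposited genes do not include that antisense gene, so its level is not known.

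The nidogens, which bridge laminin gamma 1 to type IV collagen, differed in opposite directions, and neither passed. Nid1 (chromosome 13) had 497, 331 and 670.0 normalised reads in Emcn-/- retinas and 1221, 554 and 739 in Emcn+/+ retinas, with overlap (log2 fold change -0.73 ± 0.30 SE, limma adjusted p = 0.599). Emcn+/+ replicate 1 was far above the rest, and without it the estimate was -0.42 (0.817), and without Emcn-/- replicate 2 it was -0.46. Nid2 (chromosome 14) had 397, 384 and 437 in Emcn-/- and 375, 236 and 319 in Emcn+/+, without overlap, as for 7.48% of all genes in the higher direction (0.41 ± 0.16, 0.560). Its estimate was 0.23 without Emcn+/+ replicate 2, the lowest library, and 0.56 without Emcn+/+ replicate 1. Per kb, Nid2 over Nid1 was 1.07, 1.56 and 0.875 in Emcn-/- and 0.413, 0.572 and 0.579 in Emcn+/+. Every Emcn-/- library lay above every Emcn+/+ library in this ratio, as in Nid2 alone. Nid2 is uncertain, because 8.45% of its exonic bases overlap the gene Rtraf on the other strand, which had 914, 971 and 942 normalised reads in Emcn-/- and 886, 827 and 1015 in Emcn+/+.

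**Figure D3:**
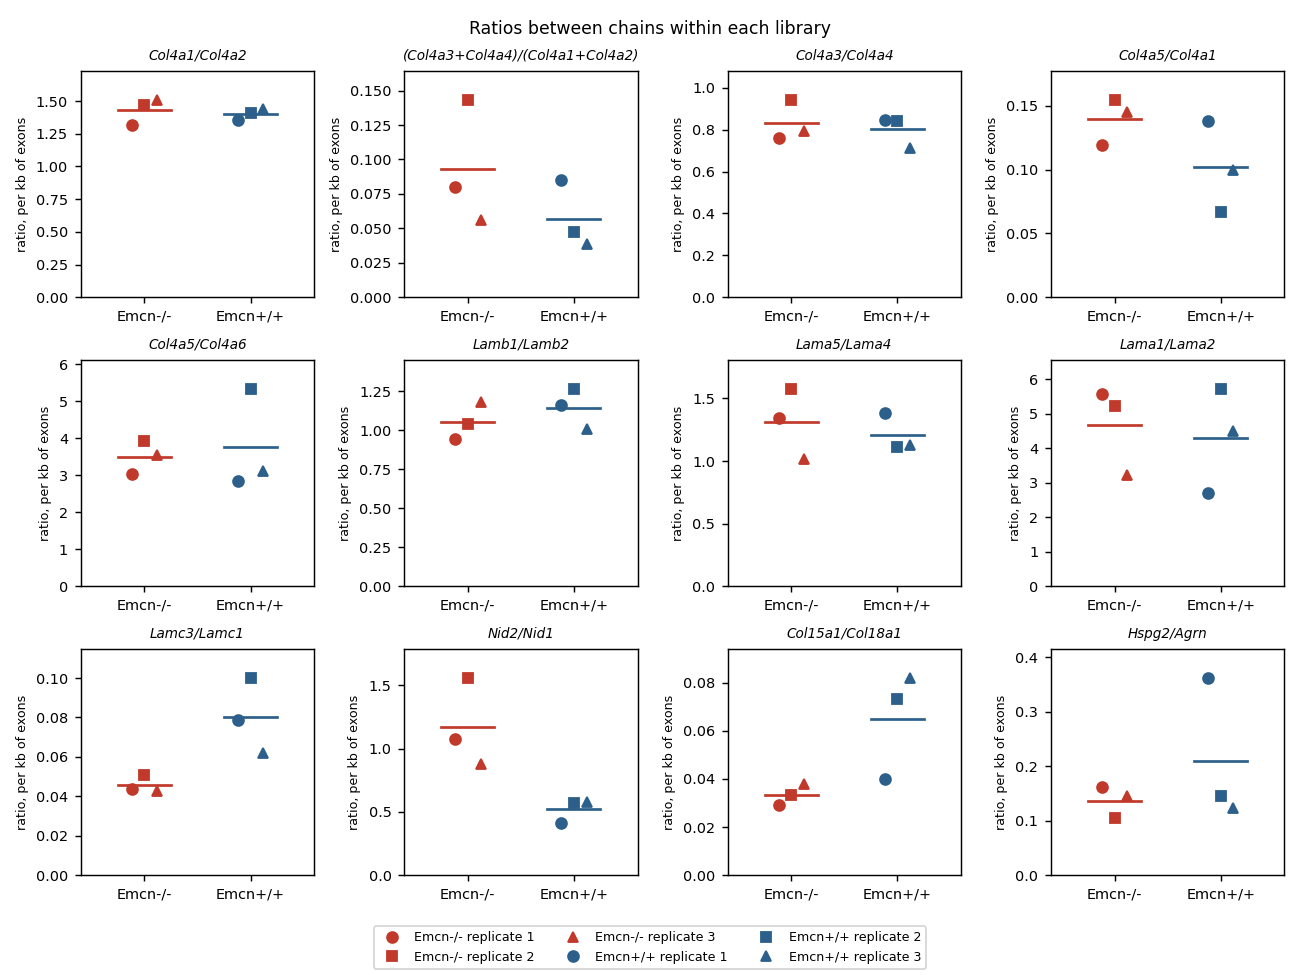
Ratio of 2 chains or pairs, per kb of exons, in each of the 6 libraries (vertical axes start at 0; bars are means), Emcn-/- left and Emcn+/+ right. The points of Col4a1/Col4a2 lie between 1.32 and 1.51. The genotypes are separate for Lamc3/Lamc1, Nid2/Nid1 and Col15a1/Col18a1. Lamc3, Nid2 and Col18a1 were each separate alone, as were 14.4% of all tested genes, so these ratios add no independent separation. No test was made on the ratios.

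Among the core proteins, Col18a1 had higher and Hspg2 lower values in Emcn-/- retinas, again without passing. Col18a1 encodes collagen XVIII, the source of the antiangiogenic fragment endostatin, and mice without it are known for hyaloid vessels that persist. Col18a1 (chromosome 10) had 3049, 2230.2 and 2973 normalised reads in Emcn-/- and 2203, 1039 and 1905 in Emcn+/+, without overlap, Emcn-/- replicate 2 and Emcn+/+ replicate 1 being almost level. The log2 fold change was 0.74 ± 0.25 (SE, limma adjusted p = 0.522), 0.95 without Emcn+/+ replicate 1 and 0.41 without Emcn+/+ replicate 2. Markers of the pigment epithelium also had higher values in Emcn-/- retinas: summed per kb over 12 genes, all 12 found and none at 0 in all libraries, they stood at 4317, 5949.8 and 5460.3 in Emcn-/- and at 3663, 1745 and 3091 in Emcn+/+. Of these markers 11 were tested, all with a positive estimate (median 0.81), and Emcn+/+ replicate 2 was the lowest library for these markers, for Col18a1 and for Nid2. Within Emcn-/-, however, replicate 2 was the highest for the markers and the lowest for Col18a1 and Nid2. The ciliary and iris markers, 9 of 10 found and none at 0 in all libraries, summed to 2209.6, 2213 and 2423 in Emcn-/- and to 2213, 1597.5 and 1901 in Emcn+/+. The part of either tissue in the Col18a1 and Nid2 values was not tested.

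Hspg2 encodes perlecan, the large heparan sulfate proteoglycan of vascular basement membrane, which holds growth factors in the matrix. Hspg2 (chromosome 4, 14307 exonic bp) had 453, 261 and 441 normalised reads in Emcn-/- and 1051, 462 and 521 in Emcn+/+. The groups did not overlap, but the gap between Emcn-/- replicate 1 and Emcn+/+ replicate 2 was small. The log2 fold change of -0.76 ± 0.31 (SE, limma adjusted p = 0.589) was -0.39 without Emcn+/+ replicate 1 (0.809), -0.50 without Emcn-/- replicate 2 and -0.63 after a trend on exonic length was removed. Agrn, which encodes agrin, the heparan sulfate proteoglycan of synapses and of the inner limiting membrane, had 1821, 1628 and 1972 in Emcn-/- and 1885, 2047 and 2730.1 in Emcn+/+ (-0.28 ± 0.13, 0.616), and its estimate was -0.13 without Emcn+/+ replicate 3. Col15a1, the relative of Col18a1 in vessel and muscle sheets, had 80.8, 67.4 and 102 in Emcn-/- and 79.9, 68.6 and 141 in Emcn+/+ (-0.16 ± 0.28, 0.901). Per kb, Col15a1 over Col18a1 was 0.0293, 0.0334 and 0.0378 in Emcn-/- and 0.0401, 0.0730 and 0.0818 in Emcn+/+. The genotypes did not overlap in this ratio, as in Col18a1 alone.

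Among the linkers were the gene with the highest level of the 33, Sparc, and the gene with the narrowest interval, Dag1. Sparc, which encodes a collagen-binding matricellular protein of endothelium and glia, had 12549.9, 12013 and 15977 normalised reads in Emcn-/- and 11637, 10334 and 14854 in Emcn+/+ (log2 fold change 0.14 ± 0.14 SE, limma adjusted p = 0.804). Dag1, the laminin receptor dystroglycan, which Müller endfeet and photoreceptor synapses use, had 2028, 2085 and 2104 in Emcn-/- and 2115, 1897 and 2115 in Emcn+/+ (0.02 ± 0.06, 0.935). Its 95% interval was -0.11 to 0.16. Fn1, which encodes fibronectin, the provisional matrix of sprouting vessels, had 1561, 1144 and 2116 in Emcn-/- and 1718, 1826 and 2504 in Emcn+/+ (-0.35 ± 0.21, 0.689). The estimate for Fn1 was -0.13 without Emcn-/- replicate 2 and -0.19 without Emcn+/+ replicate 3, and that for Sparc was 0.02 without Emcn-/- replicate 3 and 0.03 without Emcn+/+ replicate 2. Emcn-/- replicate 3 and Emcn+/+ replicate 3, the libraries whose titles carry the numbers 186 and 188, were the highest of their genotype for Fn1 and for Sparc.

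Pxdn encodes peroxidasin, which forms the sulfilimine cross-links of type IV collagen. It had 472, 429 and 562 normalised reads in Emcn-/- and 724, 475 and 511 in Emcn+/+ (log2 fold change -0.21 ± 0.16 SE, limma adjusted p = 0.746), and the estimate was -0.02 without Emcn+/+ replicate 1. Ntn4, a netrin related to laminins and found in vascular sheets, had 280.4, 279 and 290.2 in Emcn-/- and 262, 236 and 288 in Emcn+/+ (0.11 ± 0.10, 0.780), and its estimate was 0.04 without Emcn+/+ replicate 2. The integrin ligand gene Npnt averaged 997 ± 43.7 in Emcn-/- and 1019 ± 186 in Emcn+/+. Of the calcium-binding matrix genes, Smoc1 averaged 305 ± 17.6 in Emcn-/- and 312 ± 33.6 in Emcn+/+, and Smoc2 39.9 ± 8.76 in Emcn-/- and 32.6 ± 4.92 in Emcn+/+. Their log2 fold changes were -0.02 ± 0.12 for Npnt, -0.03 ± 0.10 for Smoc1 and 0.27 ± 0.25 for Smoc2 (SE, limma adjusted p = 0.976, 0.955 and 0.789). Without Emcn-/- replicate 3 the estimate for Smoc2 was 0.14.

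Fras1, Frem1 and Frem2 encode the Fraser complex, which anchors embryonic epithelia to their basement membrane. Frem1 had 269.7, 297 and 302 normalised reads in Emcn-/- and 344, 233 and 271 in Emcn+/+ (log2 fold change 0.05 ± 0.14 SE, limma adjusted p = 0.938). Frem2 had 89.6, 56.0 and 54.5 in Emcn-/- and 116, 67.7 and 77.5 in Emcn+/+ (-0.38 ± 0.27, 0.719). Fras1 had 194, 110.0 and 142 in Emcn-/- and 216, 175 and 135 in Emcn+/+ (-0.25 ± 0.23, 0.789). Emcn+/+ replicate 1 was the highest library for all 3 genes. Without it the estimates were 0.20 for Frem1, -0.16 for Frem2 and -0.09 for Fras1, and without Emcn-/- replicate 2 that for Fras1 was -0.05.

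Across the 32 genes together, single libraries stood out in both genotypes. Emcn+/+ replicate 1 had the highest value of the 6 libraries for 18 of the 32 tested genes (56.2%), beside 18.6% of all tested genes. Emcn-/- replicate 2 had the lowest value for 16 of the 32 (50%), beside 15.5% of all genes, and Emcn+/+ replicate 2 for 10 (31.2%, beside 19.4%). The mean log2 level of the 32, relative to the average of all libraries, was 0.01, -0.21 and 0.05 in Emcn-/- and 0.33, -0.22 and 0.04 in Emcn+/+. Markers of Müller glia, which border the inner limiting membrane, summed to 26977, 26948 and 23868 per kb in Emcn-/- and to 24762, 21774 and 19906 in Emcn+/+, with overlap.

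**Figure D4:**
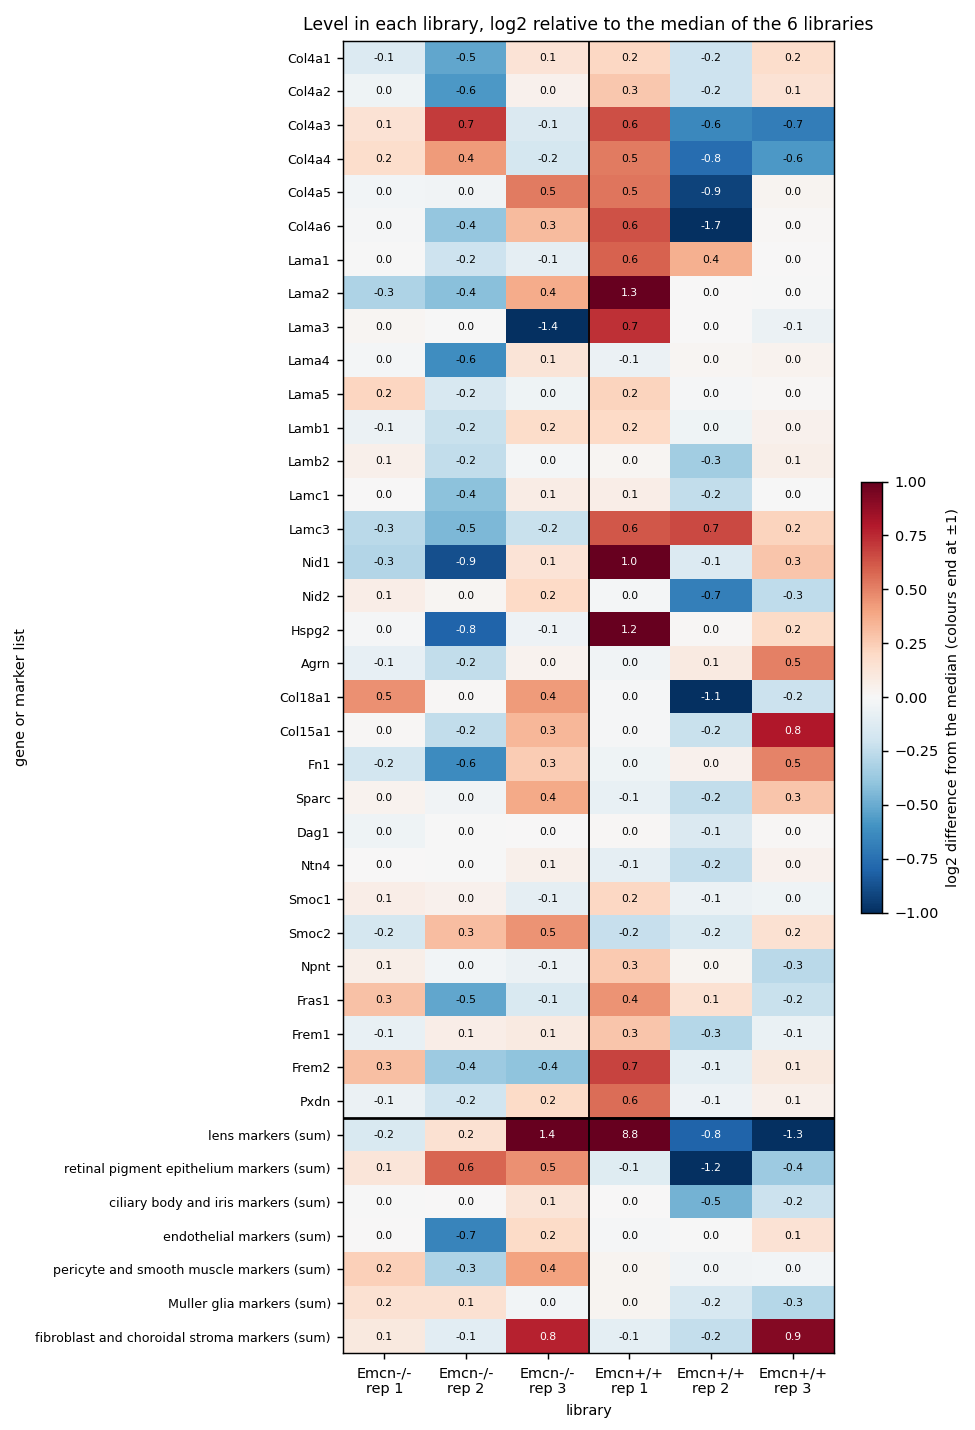
Level of each tested member and, below the line, of summed cell type markers in each of the 6 libraries (columns, Emcn-/- left), as the log2 difference from the median of the libraries (colours end at ±1, numbers do not). Nid1, Hspg2 and Lama2 are 1.0, 1.2 and 1.3 above the median in Emcn+/+ replicate 1, where lens markers are 8.8 above it, and the endothelial markers are 0.7 below it in Emcn-/- replicate 2.

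Many of these genes are long, and over all genes the fold change went with exonic length. The median exonic length was 8122.5 bp for the 32 genes and 4151 bp for all genes tested. Across 5 equal groups of length, the median log2 fold change of all genes was 0.08 in the shortest group and -0.07 in the longest (7284 bp or more), where 72.4% of all genes were negative. Of the 32, 18 are in that longest group and 14 of these 18 (77.8%) were negative, with a median of -0.22, while the 11 in the next group had 5 negative and a median of 0.02. With a trend on length removed from each library, 19 of the 32 were negative, the median was -0.04 (0.02 over all genes), and Lamc3, Nid1 and Hspg2 were at -0.79, -0.70 and -0.63.

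**Figure D5:**
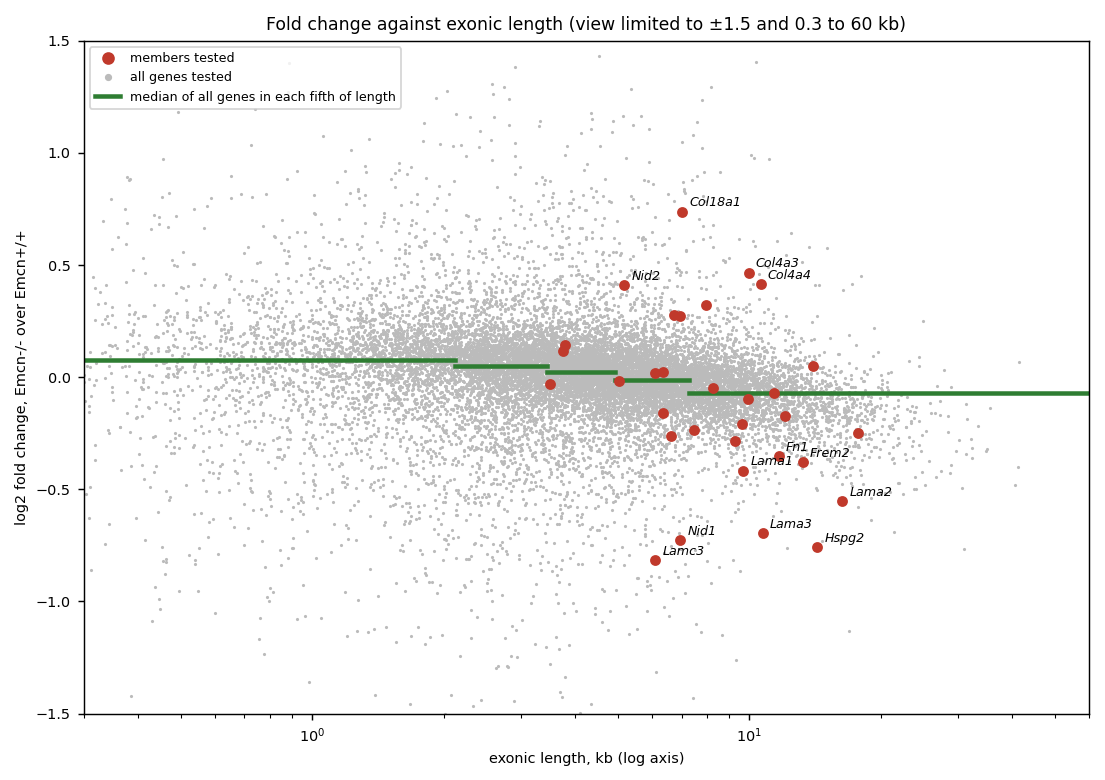
log2 fold change of Emcn-/- over Emcn+/+ against exonic length (log axis) for all tested genes with a length (grey, cut at the axis limits), the tested members (red) and the median of all genes in each of 5 equal groups of length (green bars). The green bars step down from 0.08 to -0.07, and Nid1, Lamc3, Lama3 and Hspg2 lie well below them while Col18a1 lies above.

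The genes that receive, modify and remodel basement membranes gave no call either. Of 24 tested receptor genes (integrins, discoidin receptors and dystrophin partners), 13 had a negative and 11 a positive estimate (median log2 fold change -0.01). The smallest p among them belonged to Itga2, a collagen-binding integrin subunit, at 21.4, 20.7 and 24.95 normalised reads in Emcn-/- and 35.3, 43.6 and 56.8 in Emcn+/+ (log2 fold change -0.96 ± 0.25 SE, limma adjusted p = 0.424), and the next to the laminin alpha 5 receptor gene Bcam (0.52 ± 0.17, 0.518). Of 15 genes that glycosylate dystroglycan, 3 were negative and 12 positive, with a median of 0.07, and Pomt1, which starts the sugar chain, was at -0.13 ± 0.09 (0.706). Of 25 genes of collagen processing and cross-linking, 9 were negative and 16 positive (median 0.04), and the prolyl 3-hydroxylase gene P3h2 was at -0.44 ± 0.19 (0.604) and the isomerase gene Ppib at 0.21 ± 0.09 (0.616).

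Of 24 matrix turnover genes, 12 were negative and 12 positive (median -0.0028). Timp3, a metalloproteinase inhibitor of Bruch's membrane, had 1669, 1815 and 1670.0 normalised reads in Emcn-/- and 1419.8, 843 and 1152 in Emcn+/+ (log2 fold change 0.62 ± 0.16 SE, limma adjusted p = 0.400), and the proteoglycan-cleaving protease gene Adamts9 was at 0.58 ± 0.25 (0.612). Of 30 other basement membrane and perivascular genes, 18 were negative and 12 positive (median -0.04). Col8a1, a collagen of Descemet's membrane and vessels, had 874, 1248 and 753 in Emcn-/- and 724, 404 and 522 in Emcn+/+ (0.81 ± 0.23, 0.451). None of these related genes passed with limma in all 6 libraries. With DESeq2, 2 were called, among them Timp3 (DESeq2 adjusted p = 0.0111), beside 0.895% of all genes given an adjusted p.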

How the data were processed

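RNA-seq of 3 Emcn-/- and 3 Emcn+/+ retina samples was analysed. Per the labels' protocols, 1.3 µg of RNA per library went through poly-A selection and random priming, and the strand setting is not stated. The submitters' processing notes name the build GRCm38. Not given in the sources used here are the aligner, counter and annotation. The authors deposited a gene-level read signal scaled per library and not divided by length. All values (100%) of a library were multiples of the worth of 1 read, within 0.001 of a read, so read counts were recovered by division. The 6 libraries held 14865868 to 17087621 reads; the limit a count of 0 allows is 3 reads and, like all intervals on reads, covers counting error only.

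The test was limma's moderated fit (version 3.58.1, R 4.3.3; trended variance) of log2(value + 1) on genotype alone, over 16681 genes that passed edgeR's expression filter (minimum count 10 on recovered reads), with Benjamini-Hochberg adjustment and a threshold of 0.05. With this pseudocount of 1, the fold changes of low genes are understated. edgeR 4.0.16 and DESeq2 1.42.0 on recovered reads were alternatives, as were other scalings, filters and pseudocounts, a length trend removed, a block for the title-number series, and each library left out. Exonic lengths and positions are from GENCODE M21 (GRCm38), as the union of all exons, which can exceed the length of the transcripts present. Only the reported fit, edgeR, DESeq2 and the fit with the length trend removed were tried on simulated data, and the outcome is not given here.

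All 33 members are given; fuller values go to the member of each subfamily with the highest mean or smallest p and to those without overlap, and related lists name their 2 genes of smallest p, except some that are not reported here. Members and lists were chosen with earlier results of these data known. Replicate numbers only name samples, in accession order.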

Additional observations from a re-analysis of the deposited data

How the results depend on the processing

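In all 17 fits 0 basement membrane genes were called. The count over all genes was 1 in the fit reported and moved to 74 with DESeq2 (0.895% of the 8264 given an adjusted p). It was 42 within the title-number series 144 to 148. With 1 library left out it lay between 0 and 151, the highest without Emcn+/+ replicate 3. Of the related and cell type genes 0 were called, against 5 with DESeq2, 1 within the title-number series and 0 to 2 with 1 library left out. The Emcn log2 fold change ranged from -5.23 to -4.50 over libraries left out, and its call was lost without Emcn-/- replicate 1 or Emcn+/+ replicates 1 or 2 (limma adjusted p = 0.155, 0.0924 and 0.191); DESeq2 gave it no adjusted p. The median of the members ranged from -0.18 to -0.01 over libraries left out. Direction turned for Lama5 with the length trend removed (0.016) and for Frem1 within the title-number series (-0.00087); the cause was not tested. With 1 library left out, estimates crossed 0 for Col4a5 (-0.13 to 0.60), Col4a6 (-0.35 to 0.82), Lama4 (-0.32 to 0.054), Lama5 (-0.17 to 0.015), Lamb2 (-0.11 to 0.11), Lamc1 (-0.14 to 0.10), Col15a1 (-0.37 to 0.15), Dag1 (-0.029 to 0.049), Smoc1 (-0.076 to 0.058), Npnt (-0.15 to 0.11) and Frem1 (-0.078 to 0.20). The log2 difference of the Lamb1/Lamb2 ratio was -0.29 within the title-number series. The ratio Col4a3/Col4a4 was added after its values were seen. No paired analysis was possible because the replicate numbers come from sample order; a block for the title-number series changed no member's call. The low members, such as Lamc3, rest on few reads, so counting error limits them too.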
